A study of Mus musculus with 768 samples.

Results

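Wnt ligands and the secreted proteins that modulate them were described as a set of 10 genes, taken by symbol from the 24490 mouse genes of the count tables. Of these, 7 encode secreted Wnt antagonists or their relatives (Sfrp1, Sfrp2, Sfrp4, Frzb, Wif1, Dkk2 and Dkk3), 2 encode ligands (Wnt5a and Wnt6) and 1 encodes an R-spondin (Rspo3). The cells were cancer-associated fibroblasts from mammary tumors of the strain FVB/N-Tg(MMTVPyVT)634Mul/J at an age of 14 weeks, in which the mouse mammary tumor virus promoter drives the polyoma middle T antigen in the mammary epithelium. The labels give no treatment, and there was no normal tissue for comparison. Live EpCAM-, CD45-, CD31- and NG2- cells from 2 tumors were sorted singly, into 1 plate per tumor, and sequenced with Smart-seq2, a full-length method that keeps no strand. Tumor and plate therefore cannot be told apart, and with a single sort gate all 768 wells carry the same label.

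Wells were grouped by 3 genes outside the set. After 41 of the 768 wells with under 10000 reads outside the ERCC spike-ins were left out, a well was called vascular, matrix or Trf-high when Rgs5 (a pericyte gene), Dcn (decorin, a matrix proteoglycan) or Trf (transferrin) stood at a log2(RPKM + 1) of 5 or more and led the other 2 genes by at least 2. RPKM scales the reads of a gene by transcript length and by the reads of the well, and so compares genes as well as wells. In tumors 1 and 2 this gave 82 and 75 matrix wells (21.98% and 21.2% of kept wells), 7 and 20 Trf-high wells (1.88% and 5.65%) and 19 and 21 wells with no class (5.09% and 5.93%), and all other kept wells were vascular (71.05% and 67.23%). A kept well held between 10281 and 1190516 reads, with a median of 207477. All 10 vascular markers were read in at least 20% of vascular wells in both tumors. All 10 matrix markers were read in at least 20% of matrix wells in both. This share was also reached by 8 and 8 vascular markers in matrix and 7 and 8 in Trf-high wells. It was reached by 6 and 5 matrix markers in vascular and 8 and 7 in Trf-high wells. The vascular markers had a summed mean of 3790 and 4112 RPKM in vascular wells, against at most 126.9 in the other classes. The matrix markers had 6950 and 6155 RPKM in matrix wells, 1028 and 901.2 in Trf-high and at most 196.2 in vascular wells. For the Trf-high class, 6 markers other than Trf that the study drew from these wells (Mia, Scrg1, Sox9, Sox10, Spint2 and Lcn2) were each read in at least 20% of its wells in both tumors, with a summed mean of 3920 and 5395 RPKM against at most 109.8 in the other classes. The Trf-high wells also carried epithelial RNA despite the EpCAM- gate. The summed mean RPKM of 8 luminal markers was 926 and 480 in the Trf-high wells of tumors 1 and 2, against 7.17 and 26.2 in vascular and 7.91 and 21.1 in matrix wells. Few wells carried these means, as the sum had medians of 88.3 and 82.1 and maxima of 5710 and 4261 in Trf-high wells. For 4 basal markers the mean sum was 737.1 and 31.2 there, with medians of 0, and at most 13.3 in the other classes. Epcam itself was read in 3 of 7 and 5 of 20 Trf-high wells. S100b, a glial and Schwann cell marker, reached 601.2 and 240.9 RPKM there. The part of these cells in the Trf-high results was not tested.

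Wnt proteins are lipid-modified ligands that bind Frizzled receptors with the co-receptors Lrp5 and Lrp6 to stabilize beta-catenin, or act through Ror and other receptors without it. Secreted frizzled-related proteins (Sfrp1, Sfrp2, Sfrp4 and Frzb) carry a Frizzled-like domain and bind Wnts outside the cell, as does Wif1. Dickkopf proteins act on the Lrp co-receptors, with Dkk3 as a divergent relative, and R-spondins raise Wnt signaling through Lgr receptors. In the mammary gland and its tumors, stromal cells are a known source of both ligands and antagonists.

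Most of the genes had their highest level in matrix cells. By mean RPKM, 7 of the 10 genes had their highest level in matrix wells, averaged over both tumors (Sfrp1, Sfrp2, Sfrp4, Frzb, Dkk2, Dkk3 and Wnt5a), Wif1 and Rspo3 had it in Trf-high wells and Wnt6 in vascular wells. For Sfrp1 the order of matrix and Trf-high wells turned round when means of log2(RPKM + 1) were taken, and for Wnt5a that of vascular and Trf-high wells did. Counts were summed per tumor and class into 6 libraries, so that each class had n = 2 tumors, and compared with the edgeR quasi-likelihood test across 11715 genes with a mean of at least 1 RPKM. Of the 10 genes, 8 passed this filter and Wnt6 and Rspo3 did not. A gene can pass by being high in a single class, so the counts that follow describe these 8 and not the whole set. In matrix against vascular wells 5 were higher and 0 lower at an adjusted p of 0.05, where 3.81% of all tested genes were higher and 2.07% lower. At an unadjusted p of 0.05 these counts were 7 and 0, beside 10.1% and 7.42% of all tested genes, and DESeq2 also gave 7 and 0, beside 8.72% and 6.15%. In Trf-high against vascular wells 3 were higher and 1 lower, beside 5.04% and 7.78% of all tested genes. In Trf-high against matrix wells 1 was higher and 3 were lower, beside 3.41% and 8.07%. When the tumor was fitted as a block, the calls in these comparisons were 4 higher and 0 lower (beside 2.01% and 0.99% of all tested genes), 2 and 0 (3.42% and 4.79%) and 0 and 2 (1.89% and 5.22%). DESeq2 at an adjusted p of 0.001 called 4 higher and 0 lower (beside 5.43% and 3.33%), 3 and 1 (5.99% and 8.02%) and 1 and 3 (4.64% and 8.6%). At that threshold edgeR called 0 members in each, but it called hardly any gene. Of all 11715 tested genes it called 5 higher and 20 lower in Trf-high against vascular wells and 0 in the other comparisons. The 3 comparisons share libraries and are not independent of one another. The median log2 fold change of the 8 genes was 6.96 in matrix against vascular and -2.09 in Trf-high against matrix wells, where that of all tested genes was -0.04 and -0.12. In Trf-high against vascular wells it was 1.11 as fitted, and 3.59 over 7 genes with those at 0 in one class set at the bound that 3 reads allow, beside -0.13 over all tested genes.

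**Figure D1:**
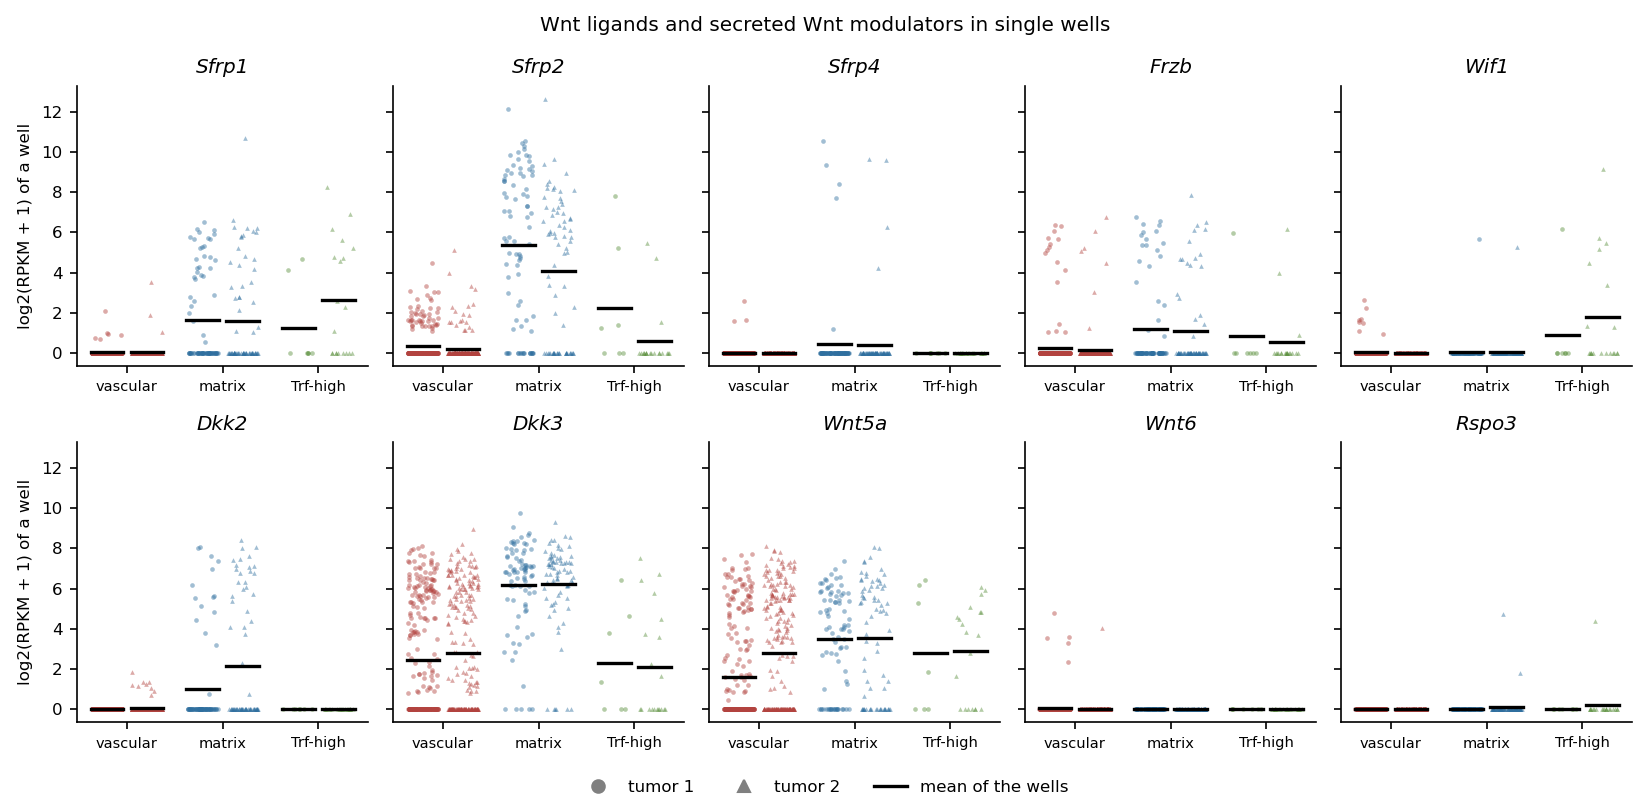
Level of each gene in single wells, as log2(RPKM + 1), by class and tumor. Each point is a well and each bar the mean of the wells. Matrix wells carry Sfrp2, Dkk2 and high Dkk3, and matrix and Trf-high wells share Sfrp1. Wnt5a is spread over all classes, and Sfrp4, Wnt6 and Rspo3 rest on few wells (12, 7 and 5 of all kept wells).

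Sfrp2 had the highest mean RPKM of the antagonists in matrix wells, while Dkk3 was higher there by median and by share of wells. The gene lies at chr3:83765750-83774314 on GRCm38.p6 (mm10), and its exons overlap those of the antisense gene Gm26771, whose reads cannot be told apart from its own without strand. Its mean level was 308.2 and 178.6 RPKM in the matrix wells of tumors 1 and 2, 37.3 and 3.55 in Trf-high wells and 0.635 and 0.433 in vascular wells. Both matrix libraries stood above every other library, and both Trf-high libraries above both vascular ones. Among matrix wells 78.05% and 64% had a read, with medians of 52.6 and 36.3 RPKM and single wells at 4432 and 6414, and the highest well of tumor 2 held 59.8% of the Sfrp2 reads of its library. The low vascular level was also a low level per well. Although 18.5% and 8.40% of vascular wells had a read, only 0 and 1 of these 49 and 20 wells reached 5 reads. Sfrp2 was higher in matrix than in vascular libraries by a log2 fold change of 9.73 ± 1.42 (SE, adjusted p = 0.0221, edgeR), 778-fold in tumor 1 and 996-fold in tumor 2, and passed in 14 of 15 alternative settings with adjusted p between 1.54e-18 and 0.0704, the highest with 3 markers in place of 1 to set each class. Trf-high exceeded vascular libraries by 5.38 ± 1.20 (adjusted p = 0.0424), a call that held in 9 of 15 alternatives. It was lost with the tumor as a block (adjusted p = 0.0566), without wells holding Epcam reads (adjusted p = 0.0517, at a log2 fold change of 5.89) and without the well richest in Sfrp2 of each library (adjusted p = 0.0998, at a log2 fold change of 2.80), in a range of 2.93e-06 to 0.0998. The gap between Trf-high and matrix libraries, 12.3-fold in tumor 1 and 113.8-fold in tumor 2, did not pass (log2 fold change -4.35 ± 1.12, adjusted p = 0.0662). It passed in 4 of 15 alternatives, among them the fit without those richest wells (adjusted p = 0.0146). Its size depended on the setting, as the log2 fold change ran from -6.81 to -1.50 and the adjusted p from 0.000404 to 0.570.

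Sfrp1, a secreted frizzled-related protein (chr8:23411383-23449632), was shared by matrix and Trf-high cells. Its mean level was 11.2 and 33.3 RPKM in matrix wells, 5.87 and 33.2 in Trf-high wells, and 0.0281 and 0.0603 in vascular wells. Matrix and Trf-high values overlapped, and both stood far above the vascular values. A read was found in 39.02% and 36% of matrix wells, in 2 of 7 and 11 of 20 Trf-high wells, and in 2.26% and 1.26% of vascular wells. A single matrix well of tumor 2, at 1677 RPKM, held 76.7% of the Sfrp1 reads of that library, whereas the highest well of tumor 1 held 8.59%. Matrix exceeded vascular libraries by a log2 fold change of 10.09 ± 1.31 (SE, adjusted p = 0.0164), and Trf-high exceeded them by 9.02 ± 1.27 (adjusted p = 0.0117). Both differences passed in all 14 alternative settings tried, with adjusted p from 1.63e-21 to 0.0343 for the first and from 2.84e-17 to 0.0207 for the second, including the fits without the well richest in Sfrp1 and without wells holding Epcam reads. The difference between Trf-high and matrix libraries did not pass (log2 fold change -1.07 ± 0.88, adjusted p = 0.488). Within the Trf-high wells of tumor 2, Sfrp1 was read in 4 of 5 wells with Epcam reads and 7 of 15 without, at means of 31.99 and 33.6 RPKM.

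Dkk2, an Lrp6-binding Dickkopf (chr3:132085266-132180304), was read almost only in matrix wells among the 3 classes. Its mean level was 16.2 and 37.5 RPKM in matrix wells, 0 and 0.0514 in vascular wells and 0 in both Trf-high libraries. All 9 vascular wells with a read, each in tumor 2, held a single read. In matrix wells it was read in 15 of 82 and 27 of 75, so that most matrix wells had none, and a well with reads had a median of 46.6 and 80.3 RPKM. With 7 and 20 wells, a count of 0 allows a share of up to 42.9% and 15% of Trf-high wells with a read if 3 wells are taken as the floor, and the exact intervals reach 40.96% and 16.8%, from counting error only. Matrix exceeded vascular libraries by a log2 fold change of 10.42 ± 1.64 (SE, adjusted p = 0.0399), which is at least 1185-fold in tumor 1, with 3 reads as the floor of a library, and 1059-fold in tumor 2. Trf-high libraries were lower than matrix libraries by at least 42.9-fold in tumor 1 and 266.3-fold in tumor 2 (adjusted p = 0.0399). Both calls were narrow. The first held in 11 of 14 alternatives with adjusted p between 0.00693 and 0.0530, and the second in 12 of 14 between 0.00704 and 0.0515. Both were lost without Epcam wells (adjusted p = 0.0528 and 0.0514), where the log2 fold change of matrix over vascular libraries was 10.50, and without the well richest in Dkk2 of each library (adjusted p = 0.0530 and 0.0515), where that log2 fold change was 10.28.

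The 250 bases before the RefSeq start sites of Sfrp2, Dkk2 and Wif1 are printed because Sfrp2 and Dkk2 were highest in matrix wells and Wif1 in Trf-high wells. RefSeq's table (GRCm38.p6) held such a window for 5 of the 10 genes, the others being Frzb and Wnt6. All 3 are on the plus strand, Sfrp2 at chr3:83766071-83766320, Dkk2 at chr3:132085042-132085291 and Wif1 at chr10:121033754-121034003. The start sites of these windows need not be the first base of the span given with each gene. The Sfrp2 window lies inside that span, and the Dkk2 window ends past its first base. Only the Wif1 window ends just before it. Distances below are from the start site of the window. Capitals mark matches on either strand to 6 motifs. Of these motifs, a first core of the TCF/LEF factors reads CTTTGA and the second reads CTTTGT. The site of the AP-1 factors reads TGANTCA, and that of the TEAD factors reads GGAATG. The box bound near many start sites by the basal machinery, named for its letters, reads TATAAA, and the box of the Sp1 family, rich in GC, reads GGGCGG.
Sfrp2: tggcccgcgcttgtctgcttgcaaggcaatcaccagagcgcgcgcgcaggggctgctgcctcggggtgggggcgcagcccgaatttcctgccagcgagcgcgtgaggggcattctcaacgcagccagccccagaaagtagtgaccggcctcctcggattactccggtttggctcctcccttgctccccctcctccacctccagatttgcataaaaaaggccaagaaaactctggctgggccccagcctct
Dkk2: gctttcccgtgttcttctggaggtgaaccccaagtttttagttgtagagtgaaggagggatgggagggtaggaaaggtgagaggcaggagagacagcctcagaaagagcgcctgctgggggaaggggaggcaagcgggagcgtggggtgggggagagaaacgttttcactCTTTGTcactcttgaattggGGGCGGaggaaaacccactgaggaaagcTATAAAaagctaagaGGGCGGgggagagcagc
Wif1: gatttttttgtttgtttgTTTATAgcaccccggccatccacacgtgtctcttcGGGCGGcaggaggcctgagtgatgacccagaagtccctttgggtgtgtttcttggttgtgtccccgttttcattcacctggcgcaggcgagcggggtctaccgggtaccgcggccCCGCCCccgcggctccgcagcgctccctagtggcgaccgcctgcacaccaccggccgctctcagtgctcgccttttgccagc
The Sfrp2 window has a GC content of 63.6% with 16 CpG dinucleotides and held none of these letters. The Dkk2 window has a GC content of 55.6% with 7 CpG, and held the second TCF/LEF core 80 bases before the start, a TATA box 32 bases before it and GC boxes at 60 and 17. The Wif1 window has a GC content of 62.8% with 21 CpG, and held the reverse of the TATA letters and a GC box in its distal part and another GC box 82 bases before the start. Over 32841 windows of the same kind the median was a GC content of 52.4% and 6 CpG. The first TCF/LEF core was in 13.8% of them, the second in 16.5%, the AP-1 site in 6.75%, the TEAD site in 12.6%, the TATA box in 12.4% and the GC box in 32.7%. These letters are a description of the windows only.

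Sfrp4, another Frizzled-related antagonist (chr13:19623175-19632825), was rare and strong. It was read in 5 of 82 and 4 of 75 matrix wells, where the highest wells stood at 1505 and 797 RPKM and held 66.6% and 72.1% of its reads. The class means were 33.1 and 22.4 RPKM in matrix wells, 0.0349 and 0 in vascular wells and 0 in Trf-high wells. Vascular reads numbered 3, in 3 wells of tumor 1. The matrix level was 873-fold the vascular one in tumor 1, with a counting interval of 297.9 to 4244, and at least 1037-fold in tumor 2 (adjusted p = 0.0223, edgeR). With the tumor as a block the adjusted p was 0.0699, in a range of 2.69e-19 to 0.0699 over 14 alternatives. Trf-high libraries were lower than matrix ones by at least 31.6-fold and 86.96-fold (adjusted p = 0.0240, and 0.0674 with the block, the highest of 14 alternatives that reached down to 7.03e-08). Without the well richest in Sfrp4 of each library this adjusted p was 0.0535.

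Frzb (Sfrp3, chr2:80411970-80447396 on the minus strand) was found in a minority of every class. Mean levels were 10.4 and 10.3 RPKM in matrix wells, 8.94 and 4.31 in Trf-high wells and 1.98 and 1.14 in vascular wells. By this mean both matrix values lay above the other 4, but in the summed libraries, in TMM-scaled CPM, Trf-high of tumor 1 (40.3) lay between matrix of tumor 1 (42.1) and of tumor 2 (31.2). Wells with a read made up 25.6% and 25.3% of matrix wells, 1 of 7 and 3 of 20 Trf-high wells, and 6.04% and 2.94% of vascular wells. In vascular wells with a read the median level was 31.8 and 32.9 RPKM, beside 39.7 and 24.3 in matrix wells with a read, so that the classes differed in the share of wells more than in the level of those wells. The log2 fold change of 2.69 ± 0.84 between matrix and vascular libraries (SE, 5.58-fold and 8.19-fold in the 2 tumors) did not pass over all genes (adjusted p = 0.162), nor did Trf-high against vascular (2.10 ± 0.83, adjusted p = 0.169) or Trf-high against matrix (-0.59 ± 0.80, adjusted p = 0.692). Matrix against vascular passed in 2 of 14 alternatives, DESeq2 (adjusted p = 0.0194) and no lead asked of the class gene (adjusted p = 0.0284), in a range up to 0.462. Trf-high against vascular passed in 1 of 14, with no lead (adjusted p = 0.00968), in a range up to 0.999. In Trf-high wells of tumor 1 all Frzb reads came from 1 well, which also had Epcam reads, and without Epcam wells the log2 fold change of Trf-high against vascular libraries was 0.0099 ± 1.28.

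Dkk3 (chr7:112116019-112159482 on the minus strand) was the most widely read gene of the set, in 61.1% of kept wells, and the one with the smallest standard errors. Its mean level was 143.4 and 133.2 RPKM in matrix wells, 30.5 and 36.6 in vascular wells and 17.7 and 23.9 in Trf-high wells. The 3 classes did not overlap in their library values. A read was found in 93.9% and 92% of matrix wells with medians of 112.6 and 115.8 RPKM, in 49.1% and 55.9% of vascular wells with medians of 0 and 2.05, and in 4 of 7 and 9 of 20 Trf-high wells. When each well was thinned to 50000 reads, leaving out 9 and 15 vascular, 5 and 4 matrix and 0 and 4 Trf-high wells that were shallower, the shares were 92.2% and 94.4% of matrix wells, 45.7% and 49.8% of vascular wells and 42.9% and 37.5% of Trf-high wells. Matrix exceeded vascular libraries by a log2 fold change of 2.07 ± 0.24 (SE, adjusted p = 0.0120), 4.79-fold in tumor 1 and 3.68-fold in tumor 2. This held in 14 of 15 alternatives, with adjusted p from 2.28e-16 to 0.1011, the highest where a lead of 4 was asked of the class gene. Trf-high libraries fell below matrix ones by 3.10 ± 0.25 (log2 fold change -3.10, adjusted p = 0.00288), 10.6-fold and 7.14-fold, and this call held in 15 of 15 alternatives. The smaller drop from vascular to Trf-high libraries (log2 fold change -1.04 ± 0.24, adjusted p = 0.0452) was lost with the tumor as a block (adjusted p = 0.0730) and without Epcam wells (adjusted p = 0.181, at a log2 fold change of -0.65), and held in 7 of 15 alternatives, with adjusted p from 0.000346 to 0.465. Among vascular wells, a Dkk3 read was found in 68.2% and 81.8% of those called cycling (15 and 18 of 22 wells), beside 47.3% and 53.2% of the others. Their mean levels were 24.8 and 22.5 RPKM, beside 30.99 and 38.04, and their median reads 272474 and 213309, beside 197326 and 190344. These differences within a class were not tested.

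**Figure D2:**
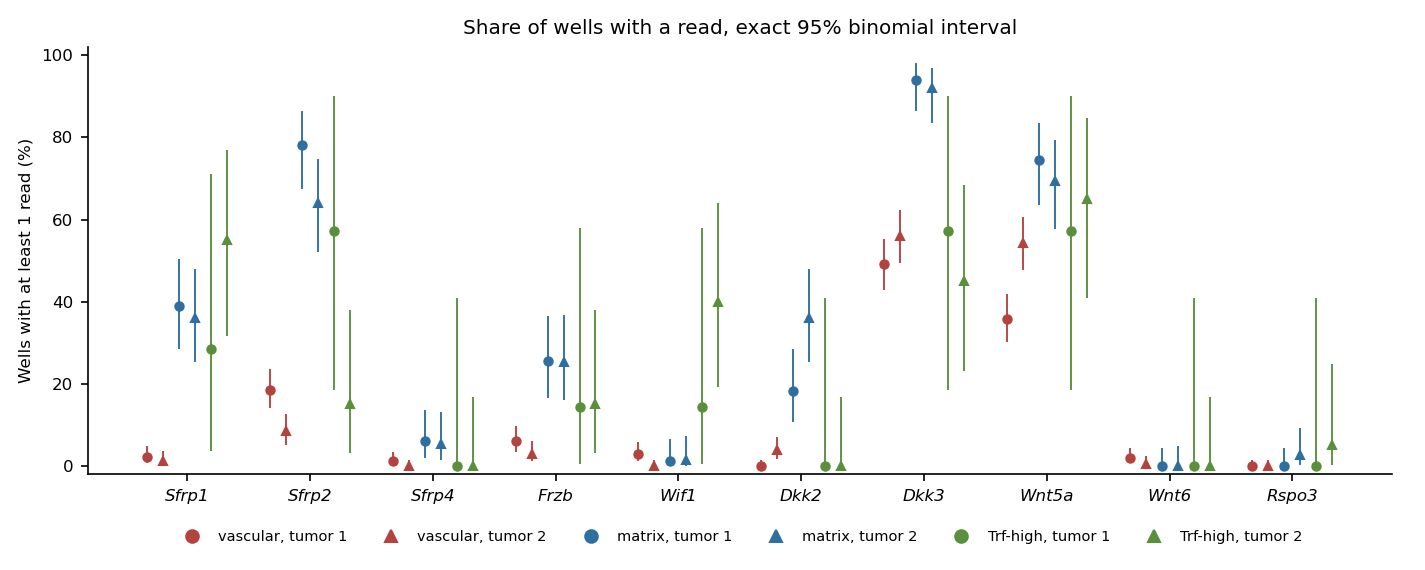
Percent of wells with at least 1 read of each gene, by class and tumor. Points are shares, and lines are exact 95% binomial intervals that cover counting error only. Dkk3 stands at 93.9% and 92% of matrix wells, Sfrp2 at 78.05% and 64%, and the intervals of the Trf-high class, with 7 and 20 wells, are wide.

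Wif1 (chr10:121034004-121100642), a secreted protein that binds Wnts directly, had its highest level among the 3 classes in Trf-high cells. Most of its reads, 81.7%, lay in wells without a class, and 16.4% in Trf-high wells. The 12 wells with both Dcn and Trf above the minimum had a mean of 318.1 RPKM, from 4 wells with reads. Its mean was 10.1 and 36.5 RPKM in Trf-high wells, 0.617 and 0.509 in matrix wells and 0.0717 and 0 in vascular wells. Both Trf-high libraries were above the other 4. These means rested on few wells. In tumor 1 a single well of 7 held all 72 reads, in tumor 2 reads were found in 8 of 20 wells with 79.7% of them in the highest, and each matrix library had 1 well with reads, of 82 and 75. Trf-high exceeded vascular libraries by a log2 fold change of 9.75 ± 1.52 (SE, adjusted p = 0.0157), 248.5-fold in tumor 1 and at least 1626-fold in tumor 2, and exceeded matrix libraries by 5.56 ± 1.25 (adjusted p = 0.0465), 21.05-fold and 85.9-fold. Without the well with the most Wif1 reads in each library the adjusted p was 0.185 and 0.1597. That change leaves both matrix libraries and the Trf-high library of tumor 1 with 0 reads, and the fitted log2 fold change over vascular libraries was then 7.32. The adjusted p without Epcam wells was 0.1008 and 0.2401, so that both calls were lost under either change. The log2 fold changes without Epcam wells were 9.63 ± 2.85 and 5.18 ± 2.32, close to those with them, and the SEs were larger. The first call held with the tumor as a block (adjusted p = 0.0440). The first call held in 12 of 14 alternatives, with adjusted p from 3.85e-15 to 0.185 and log2 fold changes from 7.32 to 12.79. The second held in only 8 of 14, with adjusted p from 3.85e-06 to 0.240 and log2 fold changes from 5.06 to 11.04. This second call was also lost with the tumor as a block (adjusted p = 0.0968) and with equal weight of wells. It depended on the class rule too, being lost with no lead asked of the class gene and with 3 markers per class. The single Wif1 well of tumor 1 had Epcam reads, while in tumor 2 Wif1 was read in 2 of 5 wells with Epcam reads and 6 of 15 without. Both matrix values lay above both vascular values, by a log2 fold change of 4.18 ± 1.26 that did not pass over all genes in edgeR (adjusted p = 0.149) and passed in 1 of 14 alternatives, DESeq2 (adjusted p = 0.00378, in a range up to 0.854).

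**Figure D3:**
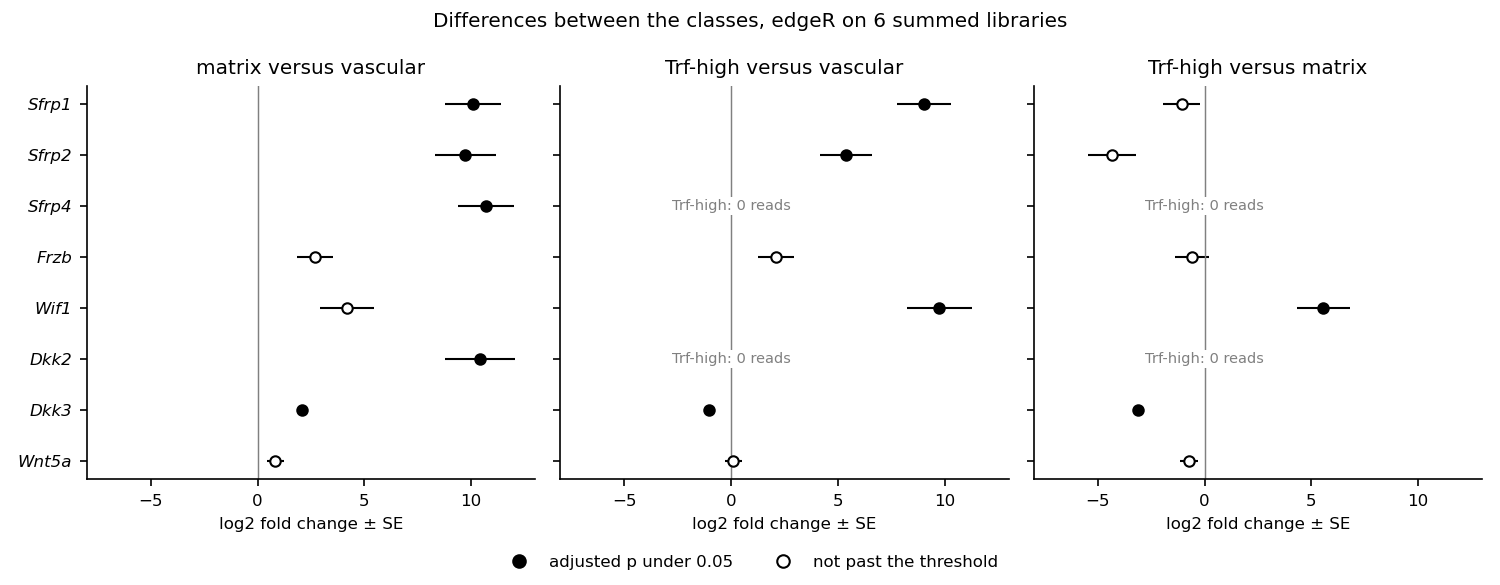
Log2 fold change ± SE of the 8 tested genes in the 3 comparisons, from edgeR on 6 summed libraries. Filled points passed an adjusted p of 0.05 over all tested genes. No fold is drawn for Sfrp4 and Dkk2 against Trf-high libraries, which had 0 reads. Sfrp1, Sfrp2, Sfrp4, Dkk2 and Dkk3 were higher in matrix than in vascular libraries, and Dkk3 fell by 3.10 from matrix to Trf-high libraries.

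Wnt5a (chr14:28504543-28527448), the prototype of ligands that act without beta-catenin, was the only ligand of the set with a substantial level, and it was present in all 3 classes. Its exons overlap those of the antisense gene Gm2670, and the reads of both cannot be told apart. Mean levels were 28.9 and 42.5 RPKM in matrix wells, 15.4 and 31.9 in vascular wells and 28.1 and 18.1 in Trf-high wells. By this mean the classes overlapped, whereas in TMM-scaled CPM of the summed libraries both matrix values (157.8 and 222.95) lay above the other 4, which ran from 77.4 to 147.04. A read was found in 50.3% of kept wells, including 74.4% and 69.3% of matrix wells, 35.8% and 54.2% of vascular wells and 57.1% and 65% of Trf-high wells. Thinned to 50000 reads the shares were 72.7% and 59.2% in matrix, 32.8% and 50.2% in vascular and 57.1% and 62.5% in Trf-high wells. No difference passed the test. Matrix against vascular libraries gave a log2 fold change of 0.83 ± 0.42 (SE, adjusted p = 0.4197), Trf-high against vascular 0.11 ± 0.42 (adjusted p = 0.899) and Trf-high against matrix -0.73 ± 0.42 (adjusted p = 0.327). Matrix stood at 2.04-fold and 1.64-fold the vascular level in tumors 1 and 2. Trf-high stood at 1.90-fold the vascular level in tumor 1 and at 0.616-fold in tumor 2.

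Wnt6, a ligand of the beta-catenin branch (chr1:74754342-74785322), was read in 7 wells. Of these, 5 were vascular wells of tumor 1 and 1 a vascular well of tumor 2, at class means of 0.230 and 0.0660 RPKM, with the highest well at 26.5 RPKM. No matrix or Trf-high well had a read. A count of 0 allows a share of up to 3.66% and 4% of matrix wells with the same floor (4.40% and 4.80% by the exact intervals), which lies above the vascular shares of 1.89% and 0.4202%, so that no difference was detectable at this depth. Rspo3 (chr10:29453106-29535867 on the minus strand, with exons that overlap the antisense gene Gm48159) was read in 5 wells. Matrix wells of tumor 2 gave 27 reads in 2 wells and Trf-high wells of tumor 2 gave 14 reads in 1 well, at means of 0.380 and 0.989 RPKM, and the other 4 libraries had none. The remaining 2 wells had both Dcn and Trf above the minimum and held 67.7% of all Rspo3 reads. Neither gene passed the filter on low values. With no filter on genes neither was called in any comparison, and in matrix against vascular libraries the adjusted p was 0.412 for Rspo3 and 0.534 for Wnt6.

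Wells differed in how many of the 10 genes they carried. A matrix well had reads of 3.37 genes on average in tumor 1 and 3.32 in tumor 2, a Trf-high well of 2.29 and 2.40, and a vascular well of 1.18 and 1.27. At least 3 of the genes were read in 67 of 82 and 57 of 75 matrix wells, in 3 of 7 and 9 of 20 Trf-high wells, and in 7.17% and 6.30% of vascular wells. None was read in 1 and 0 matrix wells but in 24.5% and 18.9% of vascular wells. An antagonist other than Dkk3 was present in 75 and 64 matrix wells, 5 and 15 Trf-high wells, and 70 and 35 vascular wells. The classes also differed in the number of all genes read. Matrix wells had a median of 5680.5 and 5525 genes read, beside 4056 and 4182 in vascular and 4771 and 6342 in Trf-high wells, and its part in these counts was not tested. Within matrix cells pairs of antagonists were read together in some wells. Every matrix well with Frzb reads also had Dkk3 reads (21 of 21 and 19 of 19), where 91.8% and 89.3% of the matrix wells without Frzb did. Sfrp2 was read in 84.4% and 81.5% of matrix wells with Sfrp1 and in 74% and 54.2% of those without it. Frzb was read in 21.9% and 18.5% of matrix wells with Sfrp1 and in 28% and 29.2% of those without it. None of these pairs was tested.

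**Figure D4:**
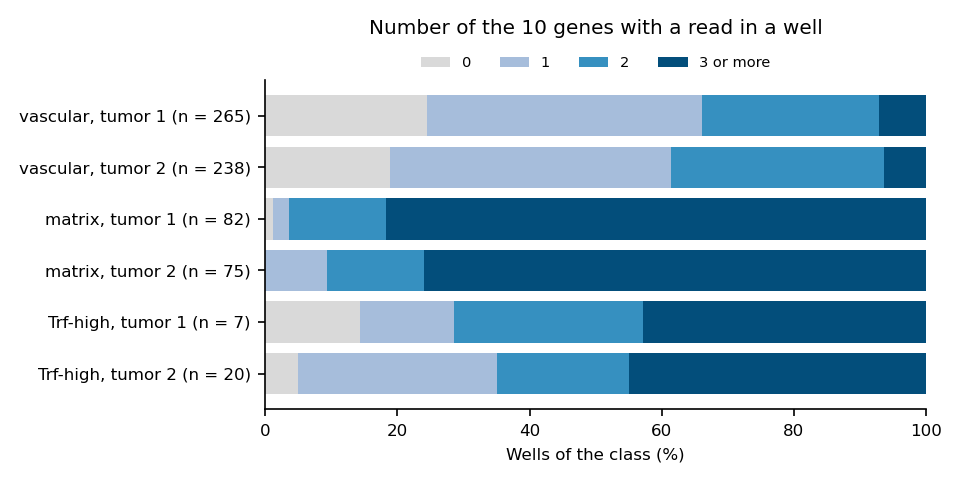
Percent of wells of each class and tumor with reads of 0, 1, 2 or at least 3 of the 10 genes. In matrix wells the largest block is 3 or more genes (67 of 82 and 57 of 75 wells), and in vascular wells it is 1 gene (41.5% and 42.4%).

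The genes whose levels followed each member most closely across matrix wells were listed for the 5 members read in at least 20% of these wells in both tumors. Likeness was Spearman's rho over 82 and 75 wells, ranked by the smaller of both values among 8293 genes, and all points share their library and differ in depth. Sfrp2 was closest to the carboxypeptidase gene Cpz (0.538 and 0.448), followed by Lgmn and Itm2a. Wnt5a was closest to Col6a1, a collagen VI chain (0.488 and 0.492), then to Lrrc15 and the actin-binding Palld. Sfrp1 was closest to the serpin gene Serpina3n (0.346 and 0.499), the glypican gene Gpc3 and Serpina3m. Dkk3 was closest to Bpgm (0.530 and 0.386), Col12a1 and Igfbp3. Frzb was closest to Nr1d1 (0.379 and 0.402), Tspan17 and the basement membrane collagen gene Col4a1. No gene appeared in more than 1 of these lists.

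The rest of the Wnt pathway was read from 7 lists of 82 genes in all, of which 53 were tested. In matrix against vascular libraries 13 of the 53 were called, 11 higher and 2 lower (beside 3.81% and 2.07% of all tested genes), and 5 of these 13 calls held when the tumor was a block (Ccnd1, Fzd2, Fzd3, Prickle1 and Tnfrsf19), where 2.01% of all tested genes were higher and 0.99% lower. In Trf-high against vascular libraries 13 were called, 10 higher and 3 lower (beside 5.04% and 7.78%), and 9 held with the block (Apcdd1, Fzd2, Fzd3, Fzd6, Fzd9, Lgr6, Lrp6, Prickle1 and Tnfrsf19, beside 3.42% and 4.79%). In Trf-high against matrix libraries 16 were called, 5 higher and 11 lower (beside 3.41% and 8.07%), and 10 held with the block (Apcdd1, Ccnd1, Fzd2, Lgr4, Lgr5, Lgr6, Ptk7, Ror1, Rspo1 and Wls, beside 1.89% and 5.22%). A call named from here on that is not among those kept in its comparison was lost with the block. In matrix against vascular libraries the median log2 fold change was 0.71 over the receptors tested (1.05 over the 13 above the floor of 3 reads), -0.13 over the cytoplasmic genes and 0.03 over the target genes, beside -0.04 over all tested genes.

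Of 17 other ligand genes 4 were tested, and 2 were higher in matrix than in vascular libraries, beside 3.81% of all tested genes. Wnt2 had a mean of 10.4 and 11.2 RPKM in matrix wells and 0 reads elsewhere, which is at least 512.9-fold above the vascular libraries (adjusted p = 0.0255, and 0.1008 with the block). Wnt9a had 20.9 and 11.3 RPKM in matrix wells and 0.509 and 1.58 in vascular wells (adjusted p = 0.0286, and 0.0760 with the block). Wnt11 had 15.4 and 17.4 RPKM in matrix wells, 0.4502 and 0.0718 in vascular wells and 0 in Trf-high wells, and the 3 ligands were lower in Trf-high than in matrix libraries. The fourth, Wnt5b, was not called in any comparison, at 69.4 and 7.24 RPKM in Trf-high, 4.48 and 5.79 in vascular and 0.628 and 3.12 in matrix wells (Trf-high against matrix, log2 fold change 4.28 ± 1.16, SE, adjusted p = 0.0750). Among 13 other secreted or shed modulators 3 were tested. Rspo1, an R-spondin like Rspo3, had 13.05 and 10.2 RPKM in matrix wells, 0.00559 and 0.00793 in vascular wells and 0 in Trf-high wells (matrix against vascular, log2 fold change 10.23 ± 0.96, SE, adjusted p = 0.0123, and 0.0503 with the block). Apcdd1, a membrane inhibitor of the pathway, had 9.90 and 9.96 RPKM in vascular wells, 8.34 and 5.20 in matrix wells and 0 in Trf-high wells, at least 29.1-fold below the vascular libraries (adjusted p = 0.00965).

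Of the 3 secretion genes, Porcn, which attaches the lipid to Wnts, was higher in matrix than in vascular libraries (33.9 and 27.9 against 6.33 and 5.88 RPKM, log2 fold change 2.75 ± 0.43, SE, adjusted p = 0.0278, and 0.0594 with the block). Wls, which carries Wnts to the cell surface, was abundant in every class, at 364.5 and 342.9 RPKM in matrix, 200.5 and 216.6 in vascular and 189.1 and 160.4 in Trf-high wells, and was lower in Trf-high than in matrix libraries (log2 fold change -1.29 ± 0.20, adjusted p = 0.0165).

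Of 14 receptor and co-receptor genes tested, 3 were higher in matrix than in vascular libraries and 0 lower (6 and 1 at an unadjusted p of 0.05, and 6 and 1 by DESeq2), while 5 were higher and 0 lower in Trf-high against vascular libraries (5 and 3 unadjusted, 5 and 2 by DESeq2). Of all tested genes, 3.81% were higher and 2.07% lower in the first comparison and 5.04% and 7.78% in the second. Unadjusted these shares were 10.1% and 7.42%, and 11.5% and 16.7%, and by DESeq2 they were 8.72% and 6.15%, and 11.1% and 15.1%. Fzd2 rose from 0.445 and 0.940 RPKM in vascular wells to 33.5 and 25.2 in matrix wells, with 6.91 and 6.56 in Trf-high wells (matrix against vascular, log2 fold change 5.93 ± 0.44, SE, adjusted p = 0.00415). Fzd1 stood at 157.7 and 159.6 RPKM in matrix wells and 8.27 and 0.462 in Trf-high wells (adjusted p = 0.0317, and 0.0513 with the block). Fzd9 was read in Trf-high wells alone, at 6.86 and 39.6 RPKM, and Fzd6 reached 37.8 and 13.1 there, against 0.293 and 3.93 in matrix wells and 0 and 0.0953 in vascular wells. The R-spondin receptors divided between the classes. Lgr5 was at 7.89 and 10.5 RPKM in matrix wells and 0 in Trf-high wells (adjusted p = 0.00811), whereas Lgr6 was at 17.5 and 35.05 RPKM in Trf-high wells and at most 0.433 elsewhere, and Lgr4 was at 43.2 and 22.1 RPKM in Trf-high, 2.68 and 3.14 in matrix and 9.80 and 11.5 in vascular wells. Lgr6 and Lgr4 were higher in Trf-high than in matrix libraries (adjusted p = 0.0180 and 0.00539). Epithelial RNA was also present in the Trf-high class, as given above, and its part in these levels was not tested.

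None of the 14 cytoplasmic pathway genes, among them Ctnnb1 (beta-catenin), Apc, Gsk3b and the Dvl genes, was called in any comparison by edgeR, where 5.88%, 12.8% and 11.5% of all tested genes were. At an unadjusted p of 0.05 the counts were 0, 2 and 2 higher and 0 lower in matrix against vascular, Trf-high against vascular and Trf-high against matrix libraries, beside 10.1%, 11.5% and 10.6% of all tested genes higher and 7.42%, 16.7% and 17.1% lower. DESeq2 called 0, 2 and 3 higher and 0 lower, beside 8.72%, 11.1% and 10.3% higher and 6.15%, 15.1% and 15.1% lower. With 14 genes these counts do not set the list apart from all genes. Of 10 target genes tested, matrix libraries had 3 higher and 1 lower than vascular ones (2 and 1 with the block), beside 3.81% and 2.07% of all tested genes. The call lost was that of Nkd2, at 122.5 and 121.1 RPKM in matrix and 37.8 and 57.05 in vascular wells (adjusted p = 0.0286, and 0.0604 with the block). Tnfrsf19 was at 4.94 and 6.69 RPKM in matrix, 22.4 and 8.78 in Trf-high and 0.342 and 0.656 in vascular wells, and Prickle1 at 21.8 and 17.5, 32.6 and 42.6, and 2.25 and 0.99 RPKM in the same order. Ccnd1 (cyclin D1) went the other way, at 6.08 and 5.02 RPKM in matrix wells against 55.3 and 39.2 in vascular and 38.98 and 88.03 in Trf-high wells (matrix against vascular, log2 fold change -3.07 ± 0.41, SE, adjusted p = 0.0171). Target genes therefore did not move in 1 direction.

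**Figure D5:**
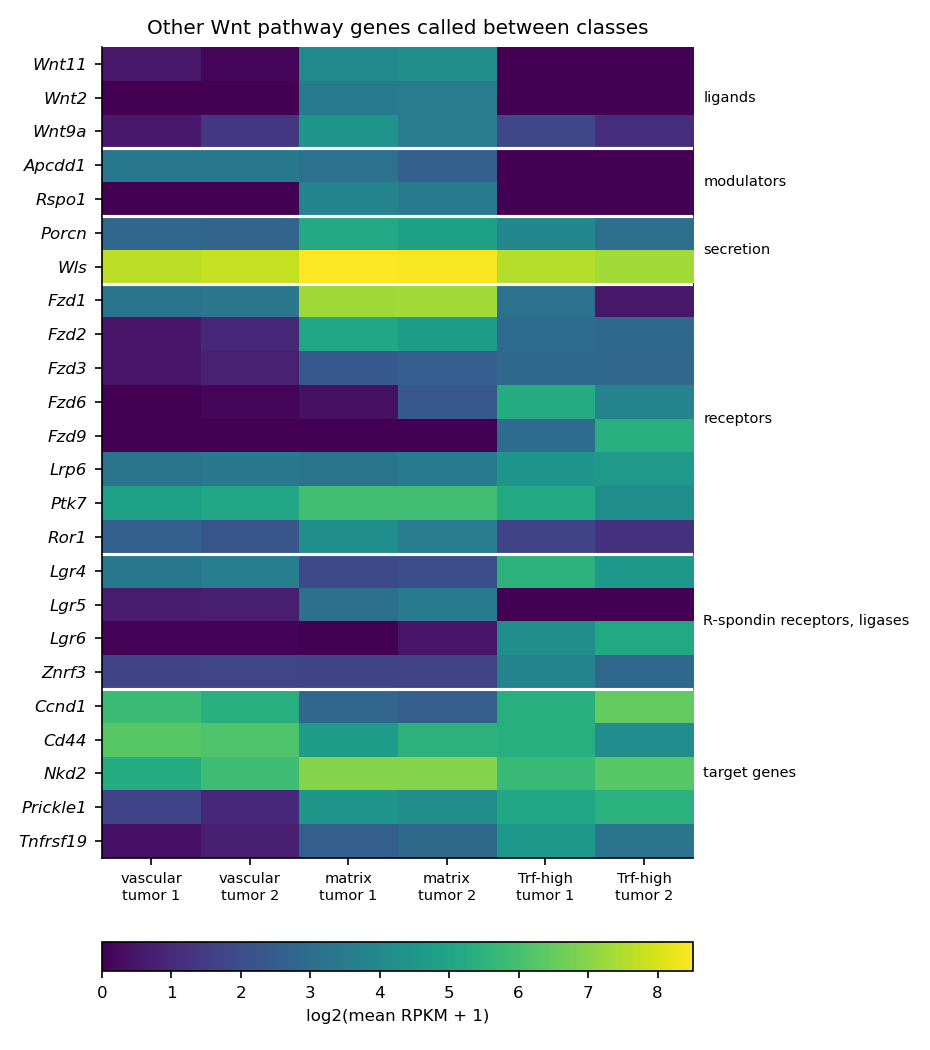
Mean level of the other Wnt pathway genes called in any comparison, as log2(mean RPKM + 1) by class and tumor, grouped by role. Matrix columns are brightest for ligands, Porcn, Wls, Fzd1 and Fzd2, and Trf-high columns for Fzd6, Fzd9, Lgr4, Lgr6 and Lrp6 (Lgr6 at 17.5 and 35.05 RPKM).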

How the data were processed

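Counts of reads per gene, deposited by the authors for 384 wells of each of 2 tumors, came from 43-base single-end reads aligned with STAR 2.3.0 to mm10 and counted against RefSeq genes. Deposited RPKM values, from the authors' rpkmforgenes, are normalized for transcript length and reads per well. Strand was not kept. No table columns of other samples were found, and 92 ERCC rows were left out of library sizes. The sort gate excluded doublets, and no doublet caller was run.

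Wells under 10000 reads were left out, and classes set as stated with the report. Counts were summed to 6 libraries of 1815459 to 55104252 reads and tested with edgeR 4.0.16 (glmQLFit, TMM, Benjamini-Hochberg over 11715 genes). The SE is the log2 fold change divided by the root of F. With 2 tumors, p-values measure the spread between 2 tumors on 1 plate each, not stated to be from different animals, and wells were never used as replicates. Intervals and the floor of 3 reads cover counting error only, since PCR copies of a molecule were not separated. Libraries of a tumor share their source, so the tumor as a block was fitted as an alternative. Deviations of same-tumor libraries correlated at 0.135 (vascular and matrix), 0.0727 (vascular and Trf-high) and -0.00297 (matrix and Trf-high). Values of the blocked fit are printed where a call changed. Other alternatives were DESeq2 1.42.0, other scalings, filters, class rules and omitted wells. The edgeR step was tested on simulated counts. One marker gene is not reported here.

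All 10 genes are named, and from each other Wnt list up to 3 called genes per comparison and direction, by size of change. Members, lists and classes were chosen with earlier results of these data known. Positions are from the GRCm38.p6 annotation and upstream sequences from RefSeq.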

Additional observations from a re-analysis of the deposited data

Results flagged for a closer look

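Wnt5a in Trf-high against vascular libraries moved in opposite directions in the 2 tumors, at 1.90-fold in tumor 1 and 0.616-fold in tumor 2. This difference between tumors was not tested, and the Trf-high class held 7 wells in tumor 1 and 20 in tumor 2.

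Reads of the set outside the 3 classes were looked at because no comparison uses them. The 40 wells without a class held 81.7% of all Wif1 reads and 67.7% of Rspo3 reads, beside 24.7% for Frzb, 15.4% for Sfrp1, 7.86% for Dkk2, 7.32% for Dkk3, 6.12% for Sfrp2 and 1.14% for Wnt5a. For Wif1 all of these reads came from 4 of the 12 wells in which both Dcn and Trf stood at 5 or more on the log2(RPKM + 1) scale. A single one of them reached 2942 RPKM. In the same 12 wells Frzb was read in 7 with a mean of 51.5 RPKM, Sfrp2 in 10 with a mean of 192.3 RPKM, and Dkk3 in 10 with a mean of 146.8 RPKM. The 12 wells had a median of 237765 reads. Whether they hold 1 cell with both transcripts or RNA of more than 1 cell was not tested.

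The 41 wells under 10000 reads held 60 reads of Sfrp1, all in 1 well, 32 of Wnt5a in 5 wells, 23 of Sfrp2 in 3 wells and 7 of Dkk3 in 4 wells. No class had between 4 and 10 samples, so outlying samples were not sought.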

How the results depend on the processing

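Of 45 counts each of all genes called and of members called, 32 of either kind stayed within 1.5 times the reported count. In matrix against vascular libraries 5.88% of tested genes were called, against 3.005% with the tumor as a replicate block, 3.74% with each well scaled to the same total, 10.4% with ERCC totals as library size, 14.9% by DESeq2 and 0 at an adjusted p of 0.001 in edgeR (where an unadjusted p under 0.05 was reached by 1187 higher and 869 lower genes). In Trf-high against vascular libraries 12.8% were called, against 8.21% with the block, 17.1% of the genes with a mean of 10 RPKM, 19.9% with ERCC totals, 26.2% by DESeq2 and 0.213% at 0.001. In Trf-high against matrix libraries 11.5% were called, against 7.10% with the block, 25.4% by DESeq2 and 0 at 0.001 (1246 higher and 2001 lower unadjusted). Of the calls against vascular libraries, 64.7% were higher in matrix and 39.3% higher in Trf-high libraries, and 84.8% and 68.8% were with ERCC totals. ERCC scaling moved the median log2 fold change of all genes from -0.04 to 0.63 against vascular for matrix and from -0.13 to 0.52 for Trf-high, and changes of the members are read relative to it.

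Of the members, 5 were called in matrix against vascular libraries, 2 at a mean of 10 RPKM and, in edgeR, 0 at 0.001. Only Sfrp2, Dkk3 and Wnt5a were tested at a mean of 10 RPKM. In each comparison the count at that filter is therefore out of 3 members and not 8. A lower count there does not by itself show a weaker result. In Trf-high against vascular libraries 4 were called, 2 with the block, at 10 RPKM, with 3 markers per class, without cycling wells or with equal weight of wells, 1 without Epcam wells and, in edgeR, 0 at 0.001. In Trf-high against matrix libraries 4 were called, 2 with the block or without Epcam wells, 1 at 10 RPKM and, in edgeR, 0 at 0.001. Beside the blocked values printed with the results, the block changed no other call of a member.

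Signs turned for values that were not called. Without the well richest in the gene in each library, log2 fold changes were -3.72 for Wif1 in matrix against vascular, and -0.81 for Frzb and -0.17 for Wnt5a in Trf-high against vascular libraries. For Wif1 that well held all reads of each matrix library, and for Frzb all reads of Trf-high tumor 1, so these values follow from what was left out. In that comparison Wnt5a was also -0.067 with no lead asked of the class gene and -0.14 with equal weight of wells, and from -0.70 to 0.93 with either tumor alone, and Sfrp4, with no more than 3 reads in any of these libraries, was 1.20 by DESeq2. In Trf-high against matrix libraries Sfrp1 was 0.36 with no lead and 0.58 with 3 markers per class, and Frzb 0.96 with no lead. For the others the cause was not tested. With 2 tumors and 27 Trf-high wells, the spread between tumors and the depth of the Trf-high libraries limit all comparisons with that class.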
